A study of Mus musculus with 12 samples.

Results

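Glutathione S-transferases (GSTs) were followed in mouse fibroblasts treated with an inhibitor of polyamine synthesis. The 10 genes described are Gsta4 of the alpha class, Gstm1, Gstm2 and Gstm5 of the mu class, Gstp1 of the pi class, Gsto1 of the omega class, Gstt1 and Gstt2 of the theta class, and the membrane-bound Mgst1 and Mgst3. They were chosen by name from the GST family, and each was represented by the transcript cluster (the array's unit of measurement for a gene) with the highest mean level. All 10 were measured, among 20736 rows tested. Each of the 10 rows carried a single symbol, and Gstp1 had 2 further clusters that it shares with Gstp2.

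The cells were NIH3T3, an established line of mouse fibroblasts, and every array came from cells sorted for the G1 phase of the cell cycle. Untreated cells (3 arrays) were compared with cells in 1 mM L-difluoromethylornithine (DFMO) for 12 h (2 arrays), 24 h (3 arrays), 48 h (2 arrays) and 96 h (2 arrays). DFMO inhibits ornithine decarboxylase, the first enzyme of polyamine synthesis, and the comparison asks how transcripts differ over time in the drug. Polyamine levels were not among the data used here. By their labels the arrays are biological replicates, which does not say whether cultures were separate, so p-values measure the spread between these samples. The untreated arrays belong to 0 h, so time in culture and time in the drug cannot be told apart. The line has no other genotype in this series, and the sorted cells stand for G1 only.

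GSTs join the tripeptide glutathione to electrophiles such as lipid breakdown products, drugs and quinones. The conjugates are then pumped out of the cell and broken down. The soluble classes work as pairs of subunits, while the membrane-bound enzymes belong to the MAPEG family, whose members also reduce lipid peroxides or take part in making leukotrienes and prostaglandins. Several GST genes are textbook targets of NRF2 (gene Nfe2l2), a factor that KEAP1 holds in check, and of the AHR and ARNT pair.

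Values are log2 levels normalised by the authors with RMA, which corrects background and gives all arrays 1 shared distribution, so a log2 difference of 1 is a doubling of signal. Array medians lay between 4.13 and 4.20. Of 15 fibroblast markers, 14 were measured, with untreated means of 7.67 to 12.30 (median 11.16). The 18 measured leukocyte markers, which fibroblasts should lack, had untreated means of 3.36 to 4.39 (median 3.59) and 0 of them were called at any time, and this range is taken as the background of untreated cells. Its top is a single marker, Cd14, and the other 17 lay between 3.36 and 3.93. Among 18 epithelial and endothelial markers the median untreated level was 3.52, but Krt14, a keratin of basal epithelium, stood at 8.83, far above that range. Untreated replicate 3 deviated from its group in the direction of 12 h replicate 2 (r = 0.321) and 24 h replicate 3 (0.579). With 2 arrays at 12 h the deviations mirror each other (-0.321 for replicate 1), so which of them deviated cannot be told. The correlation of 12 h replicate 2 with 24 h replicate 3 was not computed. Results are also given without these 3 arrays, below called the 3 arrays that deviated together.

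Against that background, 7 of the 10 genes were above the leukocyte range in untreated cells. Gstp1 had an untreated mean of 10.95 ± 0.06 (SD, n = 3), above 99% of all rows tested. Gsto1 (9.87 ± 0.17), Gsta4 (8.96 ± 0.24), Gstm1 (8.26 ± 0.16), Gstm5 (7.69 ± 0.25), Mgst3 (7.25 ± 0.33) and Gstm2 (5.16 ± 0.16) were also above it (SD, n = 3 each). Gstt1 at 3.76 ± 0.06 and Gstt2 at 3.54 ± 0.02 (SD, n = 3) lay among the leukocyte markers, so these levels cannot be told from background. Mgst1 at 4.10 ± 0.02 (SD, n = 3) was above 17 of the 18 markers and below Cd14, at the edge of background. Levels on this array depend on each gene's probes, so the order between genes is not a comparison of transcript amounts.

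**Figure D1:**
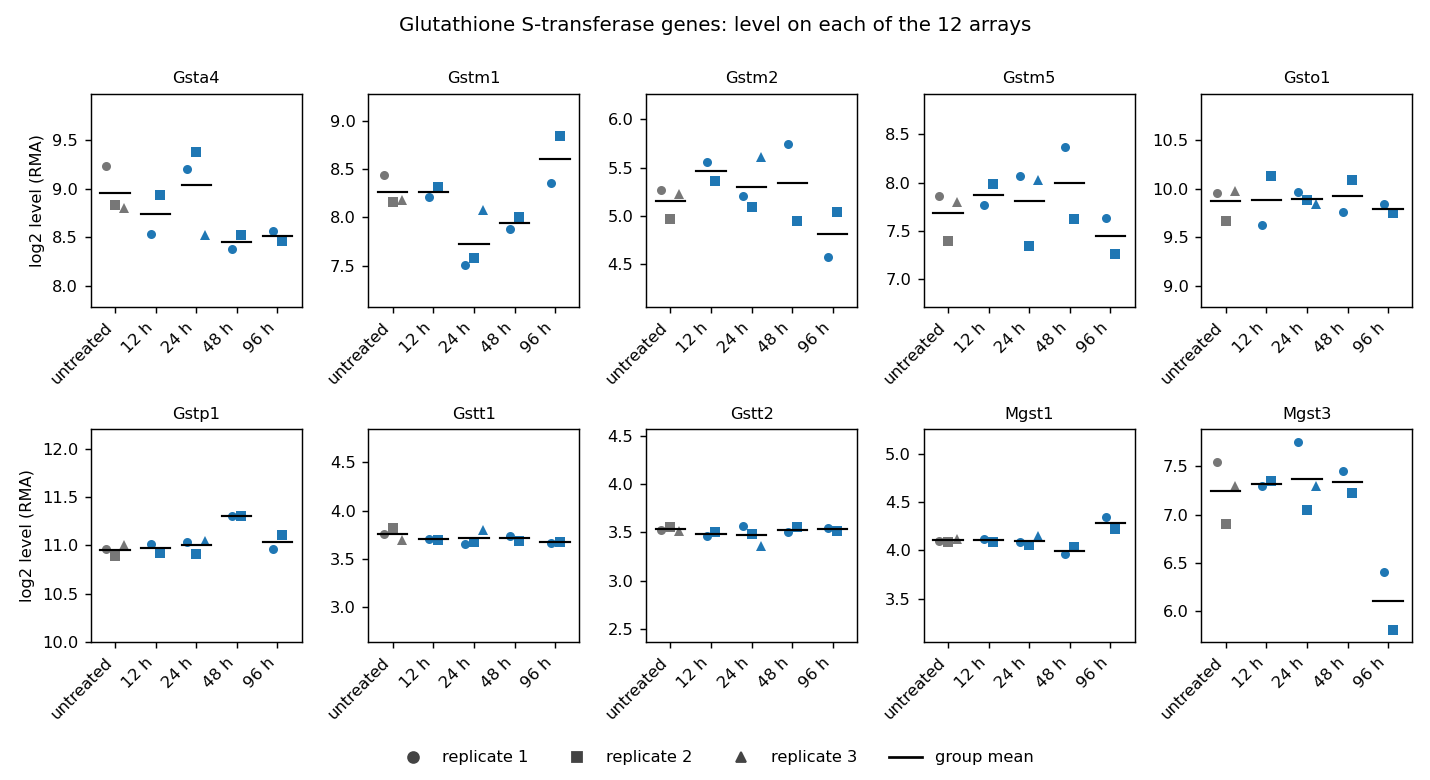
Log2 level (RMA, vertical axis, 2.2 log2 units in every panel) of each of the 10 GST genes on the 12 arrays, by group (horizontal axis). Symbols mark the replicate number and horizontal lines the group means. Gstp1 is raised on both 48 h arrays, Mgst3 is lowest on both 96 h arrays (6.41 and 5.81), and Gstt1 and Gstt2 stay between 3.36 and 3.82.

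Of the 10 genes, 1 was called at 48 h and 2 at 96 h. A gene was called when its adjusted p was under 0.05 in limma, a linear model fitted to all rows, with Benjamini-Hochberg adjustment over the 20736 rows. In the first day, that is in the 12 h and 24 h comparisons, 0 of the 10 were called, as were 0% of all rows. The numbers at an unadjusted p under 0.05 were 0 and 1 of the 10, and 766 and 1638 of all rows. At 48 h 1 of the 10, Gstp1, rose, where 5.81% of all rows were called (2.67% higher, 3.14% lower). At 96 h Mgst3 fell and Mgst1 rose, 2 of 10 beside 21.8% of all rows (11.8% higher, 10% lower). The share called among these genes was thus near that of all rows at 96 h.

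The median log2 change of the 10 genes was 0.01 after 12 h, 0.04 after 24 h, 0.03 after 48 h and -0.08 after 96 h. Over all rows these medians were -0.01, -0.02, -0.03 and 0.00. Counting genes whose treated arrays all lay outside the untreated arrays gave 1 higher and 3 lower genes at 48 h, where 15.7% of all rows lay higher and 25.4% lower. At 96 h it again gave 1 higher and 3 lower genes, beside 23% and 21.4% of all rows. At 12 h it gave 2 genes, Gstm2 above and Gstt2 below the untreated arrays (6.33% and 11.8% of all rows), and at 24 h 1 lower gene, Gstm1 (9.35%). An F test over the 4 times together called Gstm1 (adjusted p = 0.0494), Gstp1 (0.0312) and Mgst3 (0.0275) by limma, beside 17% of all rows.

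Single arrays decided these F test calls. The call of Gstm1 was lost in 10 of 12 refits that left out 1 array, all but those without 24 h replicate 3 or 96 h replicate 1, and also with all transcript clusters, centred arrays or the replicate block. That of Gstp1 was lost in 4 of the 12, without untreated replicate 1, untreated replicate 2 or either 48 h array, and with all transcript clusters, the filter on low values or the trended robust prior. That of Mgst3 was lost in 2 of the 12, without 48 h replicate 1 or 96 h replicate 2. Without untreated replicate 3, 12 h replicate 2 and 24 h replicate 3 together, Gstp1 and Mgst3 both lost the call.

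**Figure D2:**
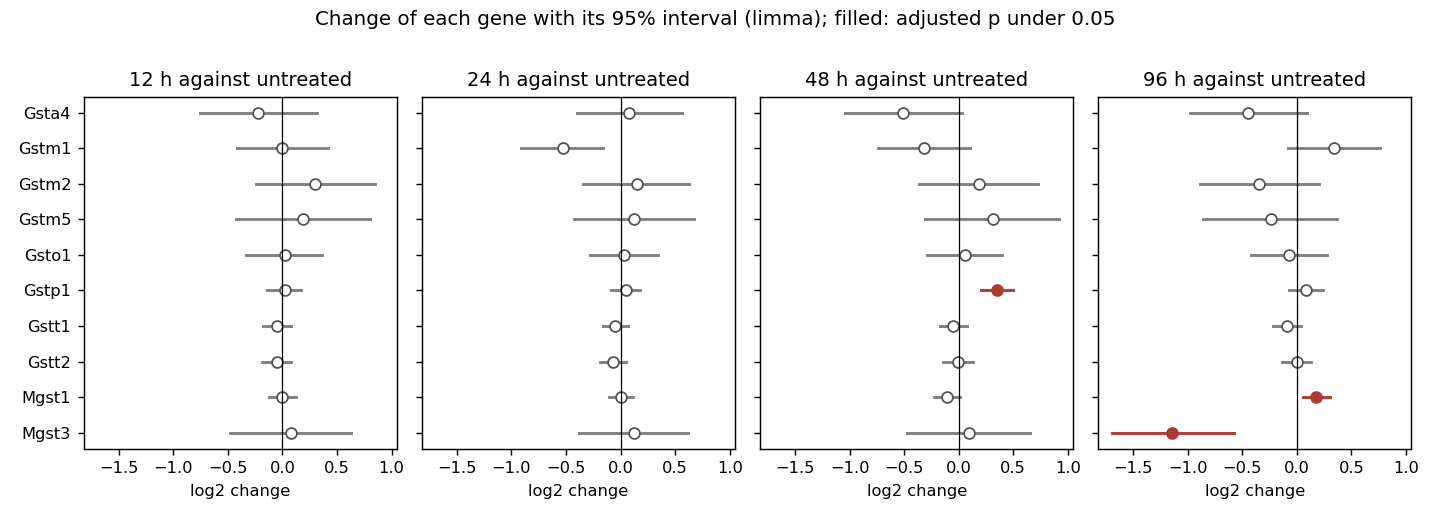
Log2 change against untreated cells (horizontal axis) of each GST gene (vertical axis) at 12, 24, 48 and 96 h, with the 95% confidence interval of the limma fit. Filled red points passed an adjusted p of 0.05. These are Gstp1 at 48 h (0.35) and Mgst1 (0.18) and Mgst3 (-1.14) at 96 h.

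Gstp1, the pi class enzyme and a widely expressed GST that also binds stress kinases, rose at 48 h, the only time at which it was called. Its level was 10.96, 10.89 and 11.01 in untreated cells, 11.02 and 10.92 at 12 h, and 11.04, 10.91 and 11.05 at 24 h. At 48 h it was 11.31 and 11.30, and at 96 h 10.96 and 11.11. Both 48 h arrays lay above every other array, and the arrays of the other 4 groups overlapped when taken in order of their means. The rise at 48 h was 0.35 ± 0.07 (SE), or 1.28-fold, with a 95% interval of 0.20 to 0.50 (limma adjusted p = 0.0176). At 96 h the difference from untreated cells was 0.08 (interval -0.07 to 0.24). The step from 24 h to 48 h was 0.30 (adjusted p = 0.0664, beside 1.6% of all rows called for that step). That from 48 h to 96 h was -0.27 (adjusted p = 0.0582, limma), so neither passed the threshold in the main fit. With array weights both steps passed (limma adjusted p of 0.0365 and 0.031). The later step also passed with centred arrays (-0.30, 0.0429) and without 24 h replicate 2 (0.047). The call at 48 h against untreated cells depended on single arrays. The call was lost when untreated replicate 1 was left out (adjusted p = 0.051), as with untreated replicate 2 (0.0616) and with the first (0.12) or the second 48 h array (0.0981), while the change stayed between 0.32 and 0.35. Without the 3 arrays that deviated together it was 0.38 (adjusted p = 0.0389, limma).

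Gstp1 has a neighbouring close relative, Gstp2, and 2 of its 3 clusters name both genes, so their signals cannot be told apart there. The first shared cluster read 9.23, 9.12 and 9.06 in untreated cells, 9.63 and 9.50 at 48 h, and 9.24 and 9.39 at 96 h. The second read 9.07, 8.97 and 8.85 in untreated cells, 9.45 and 9.31 at 48 h, and 9.07 and 9.21 at 96 h. In each of the 3 clusters both 48 h arrays were above all other arrays. The changes at 48 h were 0.43 ± 0.09 and 0.42 ± 0.09 (SE) in the shared clusters. In a fit to all transcript clusters the 3 adjusted p-values were 0.0335 for the cluster of Gstp1 alone, 0.0338 and 0.0431 (limma). The clusters share RNA and may share probes, so they are not independent measurements. Probe sequences were not used here, so whether RNA of Gstp2 also binds the probes of the cluster of Gstp1 alone was not tested.

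**Figure D3:**
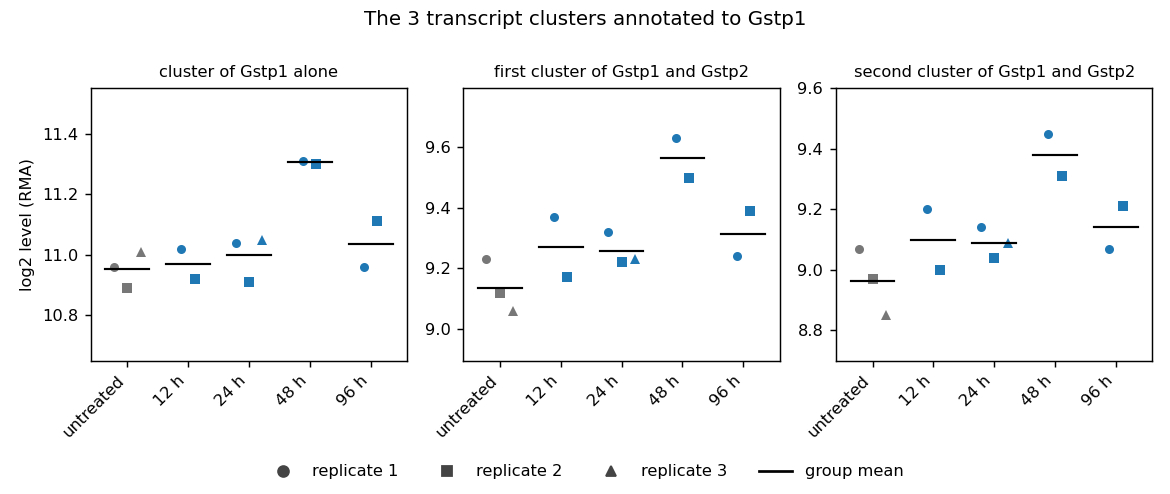
Log2 level (RMA, vertical axis) on the 12 arrays by group (horizontal axis) in the cluster of Gstp1 alone (left) and the 2 clusters annotated to Gstp1 and Gstp2. Symbols mark the replicate number and lines the group means. The 48 h arrays are the highest in each panel, at 11.31 and 11.30, 9.63 and 9.50, and 9.45 and 9.31.

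The promoters of this pair are shown because the shared clusters leave the source of the signal undecided between them. Sequences are those of RefSeq on GRCm38.p6, the 250 bases before the start on the gene's own strand, Gstp1 at chr19:4037913-4038162 and Gstp2 at chr19:4042222-4042471, both on the minus strand. Capitals mark matches, on either strand, to any of 5 motifs. These are TGACNNNGC (core of the antioxidant response element that NRF2 binds), TGANTCA (AP-1 element), GCGTG (core of the AHR and ARNT element), its longer form TTGCGTG, and GGGCGG (GC box). The first 2 motifs can overlap in a run of letters that fits both, and GCGTG lies within TTGCGTG.
Gstp1: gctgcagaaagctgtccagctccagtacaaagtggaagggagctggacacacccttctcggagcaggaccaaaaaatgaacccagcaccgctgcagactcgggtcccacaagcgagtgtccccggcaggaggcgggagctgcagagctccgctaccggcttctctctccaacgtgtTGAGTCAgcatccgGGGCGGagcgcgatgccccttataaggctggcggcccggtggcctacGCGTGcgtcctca
Gstp2: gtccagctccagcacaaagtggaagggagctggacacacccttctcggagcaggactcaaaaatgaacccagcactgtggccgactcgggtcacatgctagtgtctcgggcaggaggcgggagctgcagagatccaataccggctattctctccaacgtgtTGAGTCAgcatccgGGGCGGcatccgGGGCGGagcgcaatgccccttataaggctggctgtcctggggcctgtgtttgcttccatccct
The 2 stretches were identical in 207 of 265 alignment columns (78.1%). Both hold the AP-1 letters TGAGTCA, at -74 to -68 in Gstp1 and at -89 to -83 in Gstp2, counted from the start, followed by a GC box in Gstp1 and 2 in Gstp2. Gstp1 alone has GCGTG, at -13 to -9. Of 32851 promoters of this length in the table, 6.75% held the AP-1 letters, 28.2% GCGTG and 32.7% the GC box. A match describes the sequence and is not a measured binding site.

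Mgst3, a membrane-bound enzyme with glutathione transferase and peroxidase activity, showed the largest change of the 10 genes. Its level was 7.54, 6.90 and 7.30 in untreated cells, 7.29 and 7.35 at 12 h, 7.75, 7.05 and 7.29 at 24 h, and 7.45 and 7.22 at 48 h. At 96 h it was 6.41 and 5.81. Both 96 h arrays lay below all 10 others, and the other 4 groups overlapped. The change at 96 h was -1.14 ± 0.25 (SE), with an interval of -1.69 to -0.58 and a fold of 2.2 (adjusted p = 0.00832). At 48 h the difference had been 0.09 (interval -0.47 to 0.65), and the step from 48 h to 96 h was -1.23 ± 0.27 (SE), 2.34-fold (adjusted p = 0.0221). For that step 8.61% of all rows were called (4.33% higher, 4.28% lower), and 2 of the 10 genes, Mgst1 in the higher and Mgst3 in the lower direction.

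Single arrays mattered to the Mgst3 calls, more for the step from 48 h than for 96 h against untreated cells. Of the refits that left out 1 array, only that without 96 h replicate 2 lost the 96 h call. The SD at 96 h was 0.43 (n = 2), against 0.33 in untreated cells (n = 3) and 0.17 at 48 h (n = 2). Without 96 h replicate 2 the fall was -0.84 (adjusted p = 0.0944, limma), and without 96 h replicate 1 it was -1.44 (0.0101). Without the 3 arrays that deviated together it was -1.11 (0.052). The step from 48 h was lost without 48 h replicate 1 (-1.11, adjusted p = 0.15), 48 h replicate 2 (-1.35, 0.065) or 96 h replicate 2 (-0.93, 0.137), all by limma.

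Mgst1, a membrane-bound enzyme of the endoplasmic reticulum and mitochondria, rose at 96 h by a small amount from a level at the edge of background. It was 4.10, 4.09 and 4.12 in untreated cells, 4.12 and 4.09 at 12 h, 4.09, 4.05 and 4.15 at 24 h. The 48 h arrays read 3.96 and 4.03, the 96 h arrays 4.34 and 4.22. The 96 h arrays were above all others and the 48 h arrays below all others, within a whole range of 0.39. The rise at 96 h was 0.18 ± 0.05 (SE), or 1.13-fold, with an interval of 0.06 to 0.30 (limma adjusted p = 0.0389). The step from 48 h to 96 h was 0.29 ± 0.06 (SE), 1.22-fold (adjusted p = 0.0159, limma). At 96 h the leukocyte markers had means of 3.35 to 4.18, and their highest array value was 4.21 (Cd14), so both Mgst1 arrays were just above them. At the other times the mean of Mgst1 lay above 17 of the 18 markers and below Cd14. A fold from a level this near background tends to be too small.

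The call of Mgst1 at 96 h did not hold in most refits. It was lost without any 1 of the 3 untreated arrays, the 2 arrays at 12 h, the 2 at 48 h, 24 h replicate 1 or 96 h replicate 1 (limma adjusted p of 0.0504 to 0.293), and without 96 h replicate 1 the change was 0.12. It was also lost in a fit of all transcript clusters (0.0638), with a variance prior fitted to the level (0.0848), from the 2 groups alone (0.104), and without the 3 arrays that deviated together (0.0831). The step from 48 h was lost without 48 h replicate 1 (0.25, adjusted p = 0.131) or 96 h replicate 1 (0.23, 0.11).

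The promoters of the pair called in opposite directions at 96 h are set side by side, from RefSeq on GRCm38.p6, with the same motifs in capitals. Mgst3 is at chr1:167393842-167394091 on the minus strand and Mgst1 at chr6:138140277-138140526 on the plus strand.
Mgst3: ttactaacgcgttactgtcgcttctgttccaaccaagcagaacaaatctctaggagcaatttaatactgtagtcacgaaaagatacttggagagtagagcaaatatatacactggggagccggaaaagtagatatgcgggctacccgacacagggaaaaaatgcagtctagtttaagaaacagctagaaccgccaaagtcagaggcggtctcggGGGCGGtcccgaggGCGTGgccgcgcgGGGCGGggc
Mgst1: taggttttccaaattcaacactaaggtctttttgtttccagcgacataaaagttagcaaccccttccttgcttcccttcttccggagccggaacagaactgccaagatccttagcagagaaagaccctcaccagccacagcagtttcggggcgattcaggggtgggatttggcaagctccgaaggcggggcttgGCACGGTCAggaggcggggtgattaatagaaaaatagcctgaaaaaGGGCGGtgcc
Mgst1 holds the antioxidant response core on the opposite strand, read here as GCACGGTCA at -56 to -48, which 10.2% of all promoters held, and a GC box at -10 to -5. Mgst3 holds GCGTG at -22 to -18 and 2 GC boxes, and neither window holds the AP-1 letters or TTGCGTG. The table gives Mgst1 a further start, with its window at chr6:138141337-138141586, in which 0 of the 5 motifs were found. Gstm1 also has a further start, and for both genes the window of the outermost start is the one described. Of the 10 genes, 8 had a promoter in the table, all but Gsta4 and Gstt2. Gstm5 also holds the antioxidant response core, at -42 to -34, and an AP-1 match at -176 to -170. Each overlaps a GCGTG match on the opposite strand. The listed motifs were not in these windows of Gstm2 and Gstt1, while Gstm1 holds 1 GCGTG and Gsto1 1 GC box. The 2 windows of Gstm1 overlap and hold the same GCGTG site.

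Gstm1, a major mu class enzyme, varied over time without a call at any single time. It was 8.44, 8.16 and 8.18 in untreated cells, 8.21 and 8.31 at 12 h, 7.51, 7.58 and 8.08 at 24 h. The 48 h arrays read 7.88 and 8.00, the 96 h arrays 8.36 and 8.84. All 24 h and 48 h arrays were below every untreated array, and the 96 h arrays overlapped the untreated ones. The log2 differences were -0.53 (interval -0.91 to -0.16) at 24 h, -0.32 (-0.74 to 0.10) at 48 h and 0.34 (-0.08 to 0.76) at 96 h. Their limma adjusted p-values were 0.524, 0.384 and 0.275. The step from 48 h to 96 h was 0.66 ± 0.20 (SE), 1.58-fold, with an adjusted p of 0.0825 by limma. That step passed in refits without 24 h replicate 3 (0.0325) and with only the rows above the median level (0.0381). In order of their means the 96 h arrays came first, above those at 12 h, which overlapped the untreated arrays, and the 48 h and 24 h arrays overlapped at the low end.

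Gsta4, which conjugates hydroxynonenal, a product of lipid peroxidation, was not called at any time. Its level was 9.24, 8.83 and 8.80 in untreated cells, 8.53 and 8.94 at 12 h, 9.21, 9.38 and 8.52 at 24 h. The 48 h arrays read 8.38 and 8.52, the 96 h arrays 8.56 and 8.46. The 48 h and 96 h arrays were all below the untreated arrays, while the 24 h arrays spanned nearly the whole range. The differences were -0.51 (interval -1.04 to 0.03) at 48 h and -0.45 (-0.98 to 0.09) at 96 h, with limma adjusted p-values of 0.281 and 0.266. Without untreated replicate 3, 12 h replicate 2 and 24 h replicate 3 the 96 h difference was -0.53 and passed (0.0385), and so did the step from 24 h to 48 h (-0.84, 0.0474).

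The other mu class genes, Gstm2 and Gstm5, were not called at any time and spread widely between replicates. Gstm2 ranged from 4.58 to 5.74, and its replicates at 48 h read 5.74 and 4.95. Gstm5 ranged from 7.26 to 8.37, with 8.37 and 7.62 at 48 h. Their intervals at 96 h were -0.89 to 0.20 around -0.35 for Gstm2 and -0.86 to 0.37 around -0.24 for Gstm5. Both 95% intervals include 0 and also changes of more than 1.5-fold. At 48 h the sign of both turned without 48 h replicate 1, to -0.21 for Gstm2 and -0.07 for Gstm5. Whether the related mu class transcripts, Gstm1 included, bind each other's probes was not tested.

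Gsto1, the omega class enzyme, which reduces dehydroascorbate, was steady within its error. Its 12 arrays ran from 9.63 to 10.13, and the arrays of neighbouring groups overlapped throughout. The difference at 96 h was -0.07 with an interval of -0.42 to 0.28. The theta class genes Gstt1 and Gstt2, whose enzymes act on small halogenated molecules, ran from 3.66 to 3.82 and from 3.36 to 3.57. Their intervals at 96 h were -0.22 to 0.04 and -0.14 to 0.13, but both genes lay in the background range, where an array hardly follows a transcript. The 96 h arrays of Gstt1, 3.67 and 3.68, were below all untreated arrays (3.76, 3.82 and 3.70).

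Genes whose pattern was most like that of the 3 genes called by the F test were sought among 1314 genes whose group means spanned at least 1 log2 unit. Over the 12 arrays Mgst3 was closest to Gltp, a glycolipid transfer protein (Pearson r = 0.958), and Cnn2, an actin-binding calponin (0.955). Both fell at 96 h, by 0.74 and 0.89 on the log2 scale (limma adjusted p of 0.0156 and 0.00064). Gstp1 was closest to Slc9a9, an endosomal sodium and proton exchanger (0.827), and Gadd45a, a growth arrest gene (0.777). Slc9a9 rose by 1.71 at 48 h and stayed 1.27 higher at 96 h (adjusted p of 0.00201 and 0.00151, limma). Gadd45a was not called, with differences of 1.30 at 48 h and 0.96 at 96 h (0.128 and 0.176). Gstm1 was closest to Gabarapl1, an autophagy gene (0.849), and Cp, ceruloplasmin (0.790), neither called at 48 h or 96 h. The arrays share their group structure and normalisation, so these coefficients only describe likeness.

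Of 23 further genes of the GST and MAPEG families 18 were measured, with 0 called at 12 h, 24 h and 48 h. At 96 h 1 rose and 2 fell, beside 11.8% and 10% of all rows, and the median change was -0.02. Alox5ap, which presents arachidonic acid for leukotriene synthesis, fell by 0.32 (limma adjusted p = 0.0449). Its means, 4.50 in untreated cells and 4.18 at 96 h, were near background. The call of Alox5ap was lost in a fit of all transcript clusters (limma adjusted p = 0.0692) and with centred arrays (0.0525). It was also lost in most refits without 1 array, among them those without 24 h replicate 2 (0.0586) or 24 h replicate 3 (0.0582). Gstcd, which carries a GST-like domain, fell by 0.57 (limma adjusted p = 0.0292, and 0.0627 with the replicate block). Gstz1, the zeta class enzyme of tyrosine breakdown, was named after its values were seen and rose by 0.86 ± 0.23 (SE), from 6.07, 5.59 and 6.01 to 6.51 and 7.00 (0.0232). These calls were fragile. The rise was lost without untreated replicate 2 or 96 h replicate 2. The count of falls was 0 with untreated replicate 1, untreated replicate 3 or either 96 h array left out, and 1 when 24 h replicate 1 or either 48 h array was.

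Enzymes that supply glutathione were called in both directions. Of 16 measured genes of synthesis, recycling and breakdown, 2 rose and 3 fell at 96 h, beside 11.8% and 10% of all rows, with a median change of -0.01. Glutathione is made in 2 steps, by glutamate-cysteine ligase (catalytic subunit Gclc, modifier subunit Gclm) and by Gss. Gclm was 9.25, 9.34 and 9.55 in untreated cells, 8.66 and 8.73 at 48 h and 8.22 and 7.91 at 96 h. All treated arrays at 48 h and 96 h were below the untreated ones. It fell by 0.69 at 48 h (limma adjusted p = 0.0282) and by 1.31 ± 0.15 (SE), 2.48-fold, at 96 h (0.000193). Gclc differed by 0.30 at 96 h and was not called (0.145), but it was with the replicate block (0.36, 0.0489). Gss rose at 96 h by 0.69 ± 0.10 (SE), 1.61-fold (0.000982).

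Gsr, which reduces oxidised glutathione, was 8.50, 8.58 and 8.89 in untreated cells and 7.33 and 7.21 at 96 h. The groups were far apart, and Gsr fell by 1.39 ± 0.16 (SE), 2.61-fold (limma adjusted p = 0.000251). Ggct, which acts in glutathione breakdown, rose by 0.69 (0.00174). It went from 4.46, 4.33 and 4.74 in untreated cells, near background, to 5.25 and 5.15 at 96 h. Named after its values were seen, Lap3, an aminopeptidase, fell by 0.78 (0.00256). At 48 h 1 gene of this group rose and 1 fell, beside 2.67% and 3.14% of all rows. The rise was that of Chac1, a glutathione-degrading enzyme also chosen after its values were seen, which read 7.50 and 7.03 against 6.22, 5.67 and 6.61 (1.10, adjusted p = 0.0344, limma). Slc7a11, the cystine importer and likewise chosen late, spread from 4.57 to 8.21 over the arrays, and its 96 h difference of -1.52 was not called (0.13).

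At 48 h the count of rises in this group was 0 without untreated replicate 1, untreated replicate 2 or any 48 h or 96 h array, but 3 without untreated replicate 3. The count of falls at 48 h was 0 without untreated replicate 2, untreated replicate 3 or either 48 h array, and 2 without 24 h replicate 2. With the replicate block 3 rose and 0 fell at 48 h, and Gclm missed the threshold (-0.65, limma adjusted p = 0.0532). At 96 h the counts stayed at 2 rises and 3 to 4 falls whichever array was left out.

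Among 15 glutathione peroxidases, glutaredoxins and glyoxalases, which use glutathione without conjugating it, 2 rose and 0 fell at both 48 h and 96 h. Of all rows 2.67% rose and 3.14% fell at 48 h, and 11.8% and 10% at 96 h, so the 96 h count of rises is near the share of all rows. Gpx1, the main cytosolic peroxidase, was 8.52, 8.44 and 8.41 in untreated cells, 9.26 and 9.29 at 48 h, and 9.27 and 9.16 at 96 h. Every treated array of those times lay above the untreated arrays. Gpx1 rose by 0.82 ± 0.09 (SE) at 48 h and by 0.76 ± 0.09 at 96 h (limma adjusted p of 0.00149 and 0.000252). Gpx8, a peroxidase of the endoplasmic reticulum, rose by 0.41 and 0.75 (0.0349 and 0.00038). At 48 h the count was 1 without untreated replicate 1, untreated replicate 2 or any 48 h or 96 h array. At 96 h it was 4 without untreated replicate 1 or 24 h replicate 1, and 5 without 24 h replicate 2.

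Of 9 measured genes of conjugate export, 1 rose and 2 fell at 96 h (11.8% and 10% of all rows), after 0 calls at 48 h (5.81% of all rows). Abcc5 rose by 0.65 (limma adjusted p = 0.00306) and Abcc4 fell by 1.00 (5.55e-05), both ATP-driven pumps of organic anions. Abcc1, the pump best known for glutathione conjugates and named after its values were seen, fell by 0.45 (0.028). The count of rises at 96 h was 2 without untreated replicate 3, 24 h replicate 1 or either 48 h array. The count of falls was 1 without untreated replicate 2 or 96 h replicate 2. At 48 h the count of rises was 1 without either 12 h array.

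The regulators and other targets of the NRF2 and AHR pathways split in direction. Of 27 measured genes 8 rose and 7 fell at 96 h, beside 11.8% and 10% of all rows, and the median change was -0.04. Nqo1, the quinone reductase used as a standard NRF2 and AHR readout, was 8.90, 8.73 and 9.33 in untreated cells, 7.77 and 7.72 at 48 h and 6.31 and 6.20 at 96 h. The groups did not overlap. Nqo1 fell by 1.25 at 48 h (limma adjusted p = 0.00857) and by 2.73 ± 0.20 (SE), 6.66-fold, at 96 h (1.33e-05). Nfe2l2, which encodes NRF2, rose by 0.83 at 96 h (0.00121) and its inhibitor Keap1 fell by 0.46 (0.0435). The call of Keap1 was lost with the replicate block (0.0815), in a fit of all transcript clusters (0.0665), and without any 1 of the untreated, 12 h or 96 h arrays or 24 h replicate 3 (0.054 to 0.247). Hmox1, the stress-induced haem oxygenase, rose by 1.17 (0.00101), and Arnt, the partner of AHR, by 0.97 (6.28e-05).

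The remaining calls of this group at 96 h were listed after their values were seen. Srxn1, Prdx1, Txn1, Me1 and Cbr3, textbook antioxidant or NADPH genes, fell, with changes from -0.38 (Prdx1) to -2.27 (Cbr3). Nfe2l1, Ephx1, Akr1b8, Ftl1 and Cyp1b1 rose by 0.38 to 1.66. At 48 h 0 rose and 3 fell, Nqo1, Me1 and Ugdh, beside 2.67% and 3.14% of all rows. The count of falls at 96 h was 4 without 96 h replicate 1 and 3 without 96 h replicate 2. At 48 h it was 1 without untreated replicate 1, untreated replicate 2 or 48 h replicate 2 and 0 without 48 h replicate 1, and the call of Nqo1 was lost without either 48 h array (0.0608 and 0.064). The count of rises at 48 h was 1 without either 12 h array and 2 without 24 h replicate 2.

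**Figure D4:**
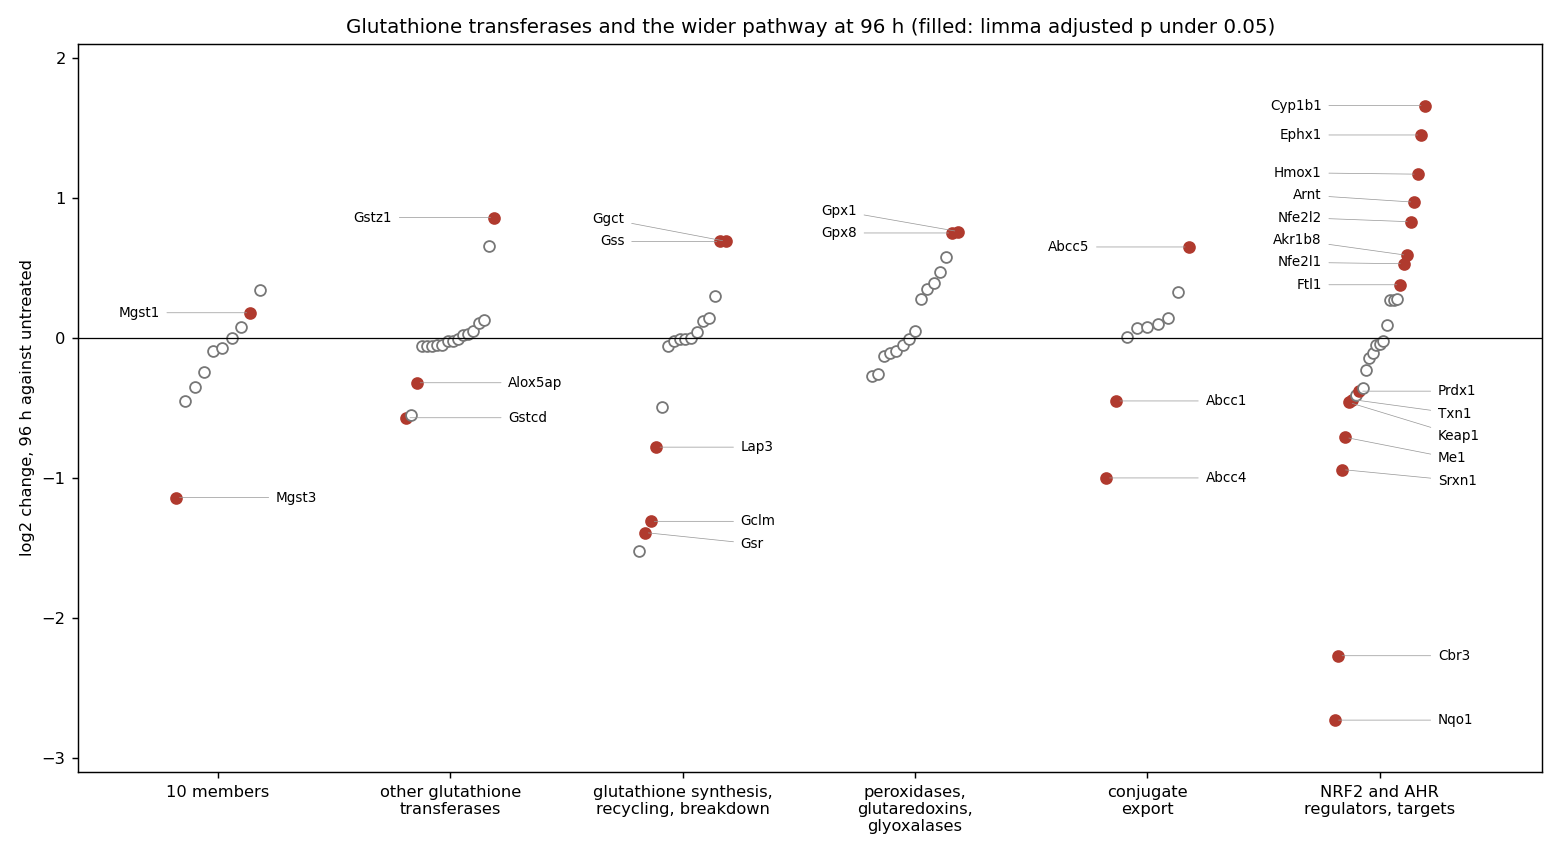
Log2 change at 96 h against untreated cells (vertical axis) of the 10 GST genes and of 5 groups of related genes (horizontal axis), each point a gene, in order of change within its group. Filled and named points passed an adjusted p of 0.05 in limma. Mgst1 and Mgst3 are the only filled points among the 10, and the NRF2 and AHR group runs from -2.73 for Nqo1 to 1.66 for Cyp1b1.

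In the first day of DFMO 0 genes of any of these 5 groups were called. Some cell type markers were also called at 96 h, where 11.8% of all rows rose and 10% fell. The counts of the epithelial and endothelial markers and of the adipocyte markers were near those shares. Of 14 fibroblast markers 1 rose and 7 fell, with Fn1 0.71 higher, Thy1 down from 8.32 to 5.97, and Lox down from 11.37 to 10.51. Their summed log2 level was 142 to 143 in untreated cells and 137 to 138 at 96 h. Of 18 epithelial and endothelial markers 2 rose and 1 fell, with Cdh1 at 4.62 and Tek at 3.71 at 96 h, both near background, and Krt14 at 7.01. Their sums were 69.1 to 69.9 in untreated cells and 68.1 to 68.4 at 96 h. Of 11 adipocyte markers 1, Plin4, rose, by 0.50 at 48 h and 0.68 at 96 h. Its untreated mean of 4.11 lay in the background range, and its 96 h mean was 4.8. The 48 h call of Plin4 was lost without any 1 of the untreated arrays (limma adjusted p of 0.0611 to 0.0757) and from the 2 groups alone (0.0576). At 48 h 2.67% of all rows rose. The adipocyte sums were 44.1 to 44.4 in untreated cells and 43.6 to 44.6 at 96 h. The leukocyte sums were 65.7 to 66.2 in untreated cells and 65.6 to 66.2 at 96 h. The part of these shifts in the changes of Mgst3, Mgst1 and the related genes was not tested. In bulk RNA of the sorted G1 fraction, fewer cells of a kind and less RNA per cell cannot be told apart.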

How the data were processed

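Total RNA of 12 samples was hybridised to Affymetrix MoGene 1.0 ST arrays. The authors deposited 1 table of log2 levels for 35399 transcript clusters, made with RMA and Partek per the submitters' processing notes, with versions and genome build not given in the sources used here. Quantile normalisation in RMA hides a shift of all transcripts in 1 direction, and folds near background are too small. Clusters were named through the platform annotation. Symbols were looked up by identifier in the RefSeq table of GRCm38.p6 (28551 of 28680 found, 0 updated). Of the clusters 21797 had 1 symbol, 1613 several and 11989 none. The cluster with the highest mean stood for a gene, or for a set of joined symbols, which left 20736 rows (790 with several symbols). The other gene lists used rows with 1 symbol. Array columns without a sample numbered 0.

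The 12 arrays entered 1 linear model with a mean for each group (lmFit, contrasts and eBayes of limma 3.58.1, R 4.3.3), tested on simulated data. Tests are two-sided with Benjamini-Hochberg adjustment over all rows within a comparison, and called at 0.05. No coordinates of clusters are given. Promoters were searched in Python 3.11.15 and aligned with Biopython 1.88.

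The genes and lists were chosen with earlier results of these data known. Named were all 10 genes, up to 3 genes per list with the smallest F test p among those called, and Gclc, Gclm, Gss, Gsr, Nfe2l2, Keap1, Nqo1 and Hmox1. For each gene called by the F test, the 2 genes most like it were also named. Alternatives were rows with 1 symbol, all clusters, the mean of clusters, a filter at the median level, centred arrays, array weights, a trended robust prior, a replicate block, only the groups compared, and each array left out. Leaving out 3 arrays together was added after seeing the data.

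To see whether equal replicate numbers mark pairs, deviations of arrays from their group means were correlated. For 24 h against untreated cells the same-number correlations were 0.15, 0.289 and 0.579, all over 0.1, but 2 pairs of unlike number reached 0.236 and 0.123. At the other times they ran from -0.258 to 0.19. The labels do not say what a number marks.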

Additional observations from a re-analysis of the deposited data

Results flagged for a closer look

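Both membrane-bound genes changed from 48 h to 96 h in a test of that step itself, and in opposite directions. Mgst3 went from 7.45 and 7.22 to 6.41 and 5.81, a log2 change of -1.23 (limma adjusted p = 0.0221). Mgst1 went from 3.96 and 4.03 to 4.34 and 4.22, a change of 0.29 at the edge of background (limma adjusted p = 0.0159). Of the other 8 genes 0 passed for this step, for which 8.61% of all rows were called (4.33% higher, 4.28% lower). Both calls depended on single arrays of the 48 h and 96 h groups, as given above. Without 48 h replicate 1 the changes were -1.11 for Mgst3 and 0.25 for Mgst1.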

How the results depend on the processing

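The number of the 10 genes called at 96 h was 1 in place of 2 with all transcript clusters, the filter on low values, the trended robust prior and only the 2 groups compared (Mgst3 each time), and with 3 arrays left out (Gsta4). By the F test it was 1 in place of 3 with all transcript clusters. It was 2 with the filter on low values or the trended robust prior (Gstm1 and Mgst3) and with centred arrays (Gstp1 and Mgst3). With array weights the F test called 4, Mgst1 being added. For 96 h against 48 h the number was 3 in place of 2 with centred arrays or array weights, Gstp1 being added. With the filter it stayed at 2, then Gstm1 and Mgst3. For 48 h against 24 h it was 1 in place of 0 with array weights (Gstp1) and with 3 arrays left out (Gsta4), and for 96 h against 48 h 1 in place of 2 with 3 arrays left out (Mgst1). Leaving out 1 array at a time gave 0 to 0 genes at 12 h, at 24 h, for 24 h against 12 h and for 48 h against 24 h. It gave 0 to 1 at 48 h, 1 to 2 at 96 h, 0 to 4 by the F test and 0 to 3 for 96 h against 48 h.

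With the replicate block 1 gene was called at 48 h (Gstp1, 0.38, adjusted p = 0.02) and 2 at 96 h (Mgst3, 0.00194, and Mgst1, 0.20, 0.0387). The F test then called 2, without Gstm1, and no other call among the 10 genes changed. Among 24-h arrays the numbers met the numerical rule for pairing but unlike numbers did too.

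Over the 10 genes, 1445 values under an alternative kept their side of the threshold. These kept their direction too, or were uncalled and changed sign by less than the SE of the main fit. Of the others 25 lost a call and 8 gained one, and 11 uncalled values changed sign by at least that SE. Uncalled values that moved without a change of sign are not among the 11, however far they moved. Of list counts 362 stayed within 1.5 times and 78 did not. Gclm, Gsr, Gss, Ggct, Gpx1, Gpx8, Abcc4, Abcc5, Nfe2l2, Arnt, Nqo1 and Hmox1 kept their call at 96 h in every setting. Where a call was lost, the cause was not tested. The filter on low values left 7 of the 10 genes, without Mgst1, Gstt1 and Gstt2. The levels of those 3 genes are near background, and groups held 2 or 3 arrays.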
